A study of Saccharomyces cerevisiae with 4 samples.

Results

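The genes examined here encode 8 transcription regulators through which *S. cerevisiae* matches sterol supply, unsaturated fatty acids and gene expression to oxygen and heme, namely *UPC2*, *ECM22*, *SUT1*, *ROX1*, *MOT3*, *HAP1*, *MGA2* and *SPT23*. They were found by their symbol, or a synonym of it, in the annotation of the array. Each of the 8 had 1 probe, and together they make up 8 of the 6226 features tested, of which 4060 are genes with a symbol. Their expression was compared between the wild-type strain 59A, a haploid derived from a meiotic spore of the wine yeast EC1118, and a mutant of 59A in which the *SCH9* reading frame was replaced by a resistance cassette. Sch9 is a protein kinase downstream of TORC1 that adjusts growth and stress responses to nutrients. Each strain was represented by 2 one-colour arrays, biological replicates 1 and 2 in the labels, which place all 4 arrays on slide 1. Both strains fermented at 24°C without oxygen in synthetic medium with 230 g/L of glucose and fructose, 142 mg/L of assimilable nitrogen and 5% of the usual lipid factors, ergosterol and oleic acid, and the methods also name a medium with less nitrogen. Cells were taken at a set amount of CO2 produced. Whether the mutant was a single clone is not stated in the paper or the labels.

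In this yeast the synthesis of ergosterol and of unsaturated fatty acids needs oxygen, so that cells without air have to import both. Upc2 and Ecm22 are related zinc cluster proteins that bind sterol response elements and activate ergosterol genes when sterol is short, and Upc2 together with Sut1 also serves sterol uptake in anaerobic cells. Rox1 is a heme-dependent repressor of hypoxic genes, Mot3 a zinc finger protein that represses some of the same genes with it, and Hap1 a zinc cluster activator that needs heme. Mga2 and Spt23 are related proteins held in the endoplasmic reticulum membrane, from which ubiquitin-dependent processing releases them to activate *OLE1*, the fatty acid desaturase gene.

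The label of the mutant was checked on the deleted gene. The log2 intensity of *SCH9* was 8.72 and 8.67 in the wild type and 5.81 and 5.67 in the mutant, in the order of replicates 1 and 2, which is kept throughout. Only 6.02% and 1.62% of the probes lay lower than this on the mutant arrays. Array medians lay between 8.52 and 8.53, and the median log FC of all features was -0.01, where log FC is the mean log2 intensity of the sch9 mutant minus that of the wild type. Markers of mating type were measured as well, since the labels do not give the mating type. At an adjusted p under 0.05 in limma 14.6% of all features were higher in the mutant. Of the a-specific genes 7 of 7 were higher at this threshold. Their summed linear intensities were 5753 to 5831 in the wild type and 18643 to 19084 in the mutant. Of the alpha-specific genes 3 of 4 were higher, with sums of 384 to 389 in the wild type and of 1401 to 1446 in the mutant. *SAG1*, the largest part of both sums, had log2 intensities of 7.81 and 7.84 in the wild type and of 10.18 and 10.23 in the mutant. Its log FC was 2.38, beside 1.15 for *MF(ALPHA)2* and 0.32 for *MF(ALPHA)1*. *MF(ALPHA)2* had 5.89 and 5.88 in the wild type and 7.01 and 7.06 in the mutant. *MF(ALPHA)1* had 5.59 and 5.59 in the wild type and 5.94 and 5.89 in the mutant. All values of *MF(ALPHA)1* and the wild-type values of *MF(ALPHA)2* were thus near those of the deleted *SCH9* gene in the mutant. *STE3*, the a-factor receptor gene of alpha cells, did not pass, with 5.72 and 5.72 in the wild type and 5.74 and 5.69 in the mutant. The part of these markers in the results below was not tested. The precision of all values is limited by the 2 arrays of each strain, and in bulk RNA fewer cells of a type and less RNA per cell cannot be told apart.

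Among the 8 regulator genes both repressor genes, *ROX1* and *MOT3*, were down-regulated in the sch9 mutant, *SUT1* rose slightly, and the other 5 did not pass the test. The fall was 2.86-fold for *ROX1* and 3.35-fold for *MOT3*, against a rise of 1.41-fold for *SUT1*. Thus 2 of 8 were lower and 1 was higher at an adjusted p under 0.05 in limma, where 12.1% of all features were lower and 14.6% higher. With the fold criterion of the methods, a log FC beyond 1 in size, 2 were lower and 0 higher, against 1.64% and 2.18% of all features. The median log FC of the 8 genes was 0.16. The arrays of the strains did not overlap in 6 of the 8 genes, 4 of them higher and 2 lower in the mutant, but this was so in 33.7% of all features upwards and in 35.8% downwards, so that such a separation is common in these data.

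**Figure D1:**
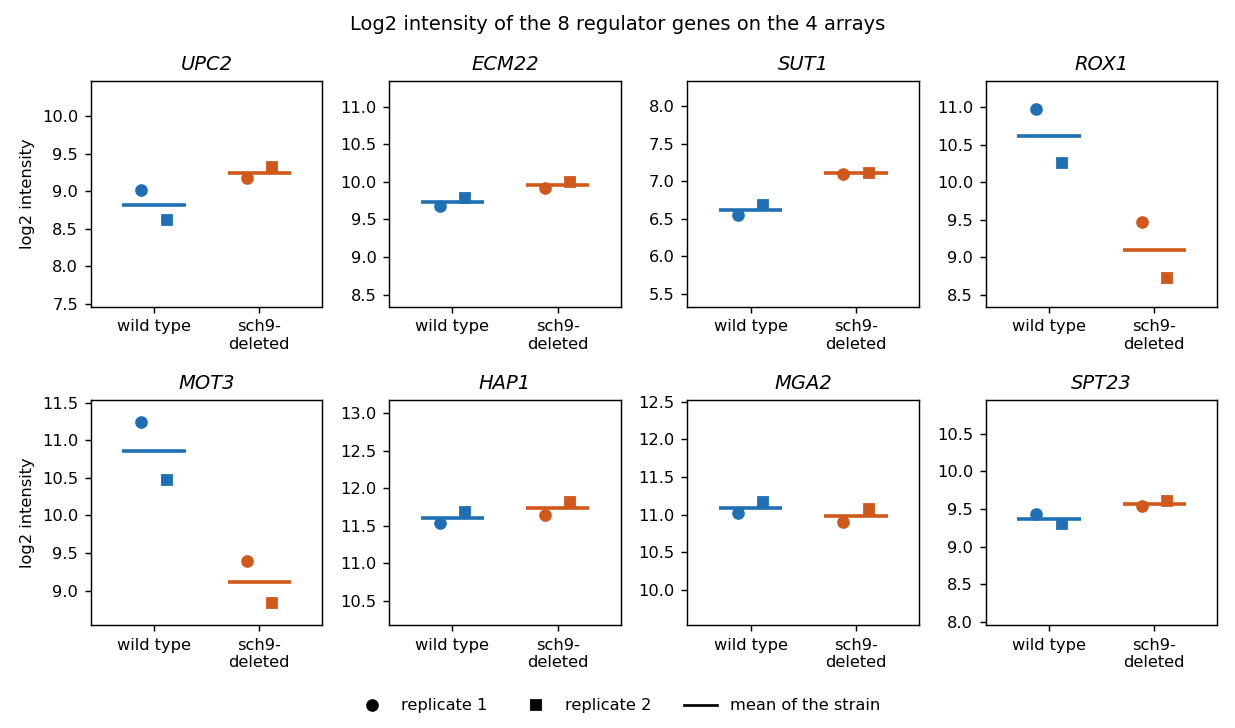
Log2 intensity of each regulator gene on the 4 arrays, with circles for replicate 1, squares for replicate 2 and a line at the mean of each strain. Every panel spans 3 log2 units, around its own centre. *ROX1* and *MOT3* have the widest gaps between the strains, 0.78 and 1.08, and replicate 1 lies above replicate 2 in both strains.

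The largest change was that of *MOT3* (YMR070W). Its log2 intensities were 11.24 and 10.47 in the wild type and 9.39 and 8.84 in the mutant. The lower wild-type array thus still lay 1.08 above the higher mutant array. The log FC was -1.74 (SE, the standard error of limma, 0.30, 95% interval -2.50 to -0.99, adjusted p = 0.0156 from limma), and 23 of the 6226 features had a lower log FC. Mot3 is known to repress certain ergosterol genes in addition to hypoxic ones.

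*ROX1* (YPR065W) had log2 intensities of 10.97 and 10.25 in the wild type and of 9.47 and 8.72 in the mutant. The strains were separate, by 0.78 between the nearest arrays, which is close to the distance between the replicates of either strain. The log FC was -1.51 (SE 0.33, 95% interval -2.34 to -0.69, adjusted p = 0.0275 from limma), with 34 features at a lower log FC. Since *ROX1* transcription is activated by Hap1 with heme and repressed by Rox1 itself, its level is commonly low in anaerobic cells, but intensities of different probes cannot be ranked against each other here. Both calls were lost without replicate 2 of the sch9-deleted strain, while both genes stayed below -1. Without this array *MOT3* had a log FC of -1.47 (adjusted p = 0.0764) and *ROX1* of -1.14 (adjusted p = 0.116), whereas without any of the other 3 arrays both passed.

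Among the 8 genes, *ROX1* and *MOT3* were also those in which arrays of a single strain differed most. Replicate 1 exceeded replicate 2 of *ROX1* by 0.72 in the wild type and by 0.75 in the mutant, and that of *MOT3* by 0.77 and 0.55. Only 1.38% and 0.289% of all features had a larger difference than *ROX1* in the wild type and the mutant, and 0.916% and 0.883% a larger one than *MOT3*. *UPC2* differed by 0.40 in the wild type and by -0.15 in the mutant. For the other 5 genes the replicates lay within 0.15 of each other in the wild type and within 0.18 in the mutant.

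**Figure D2:**
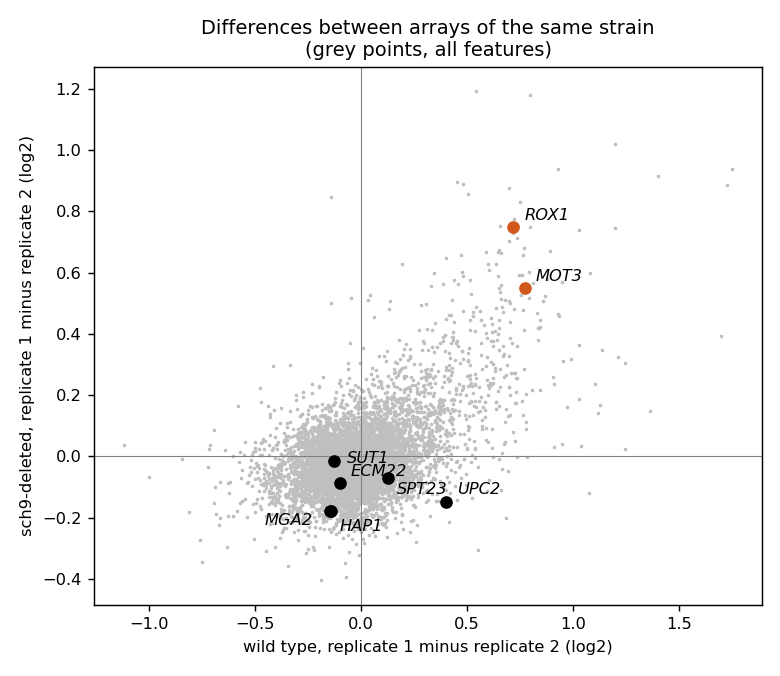
Replicate 1 minus replicate 2 in log2 units, for the wild type (horizontal axis) and in the sch9-deleted strain (vertical axis), for the 8 regulator genes (labelled points) and all 6226 features (grey). *ROX1* and *MOT3* (orange) lie away from the other 6 genes, at 0.72 and 0.75 and at 0.77 and 0.55.

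Several genes followed nearly the same course over the 4 arrays. Likeness was measured as the root mean square difference between log2 profiles after subtraction of each gene's mean, over 4 arrays and 4059 genes. The genes below were picked as the nearest on these same arrays, so closeness is by selection, and any shared control was not tested. The nearest to *ROX1* were *KRS1*, the lysyl-tRNA synthetase gene, at 0.0122, *ERG13*, the HMG-CoA synthase gene, at 0.0193 and *FTR1*, the high-affinity iron permease gene, at 0.0298. The nearest to *MOT3* were *AAH1*, the adenine deaminase gene, at 0.0718, *ERG10*, the acetoacetyl-CoA thiolase gene, at 0.0916 and *CYC1*, the aerobic cytochrome c gene, at 0.104. *ROX1* and *MOT3* were at 0.136 from each other, which made *ROX1* number 5 in the order for *MOT3* and *MOT3* number 16 in that for *ROX1*.

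Among the activators of sterol genes, *SUT1* passed the test. *SUT1* (YGL162W) had log2 intensities of 6.55 and 6.68 in the wild type and of 7.10 and 7.12 in the mutant. Its wild-type values lay below those of most probes, the lowest above 14.8% of them, and the strains were apart by 0.42. The log FC was 0.49 (SE 0.08, 95% interval 0.29 to 0.70, adjusted p = 0.0138 from limma). It was 0.50 (adjusted p = 0.0936) without replicate 1 and 0.49 (adjusted p = 0.148) without replicate 2 of the sch9-deleted strain, so that the call was lost without either mutant array.

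*UPC2* (YDR213W) had log2 intensities of 9.01 and 8.61 in the wild type and of 9.17 and 9.32 in the mutant. Both mutant arrays lay above both wild-type arrays, but by no more than 0.16. Its log FC was 0.43 (SE 0.15, 95% interval 0.06 to 0.80, adjusted p = 0.0874 from limma). It was 0.63 (adjusted p = 0.00535) without replicate 1 of the wild type and 0.23 (adjusted p = 0.0934) without replicate 2. *ECM22* (YLR228C), the paralog of *UPC2*, had 9.68 and 9.78 in the wild type and 9.91 and 10.00 in the mutant. These arrays did not overlap either, and the log FC was 0.23 (SE 0.08, 95% interval 0.02 to 0.43, adjusted p = 0.0933 from limma). With an array left out it ranged from 0.18 to 0.28. The 95% intervals of both paralogs, which are not adjusted for the number of features, lay above 0.

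*HAP1* (YLR256W) had 11.54 and 11.68 in the wild type and 11.64 and 11.82 in the mutant. In the reference strain S288C this gene carries a transposon insertion, and neither the paper nor the labels say whether 59A carries it. The arrays of the strains overlapped, and the log FC was 0.12 (SE 0.10, 95% interval -0.13 to 0.37, adjusted p = 0.405 from limma). The interval lies within the fold criterion on both sides, so a change of *HAP1* mRNA as large as that of *ROX1* falls outside it.

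Of the membrane-held activators, *MGA2* (YIR033W) had 11.02 and 11.16 in the wild type and 10.90 and 11.07 in the mutant. *SPT23* (YKL020C) had 9.43 and 9.31 in the wild type and 9.54 and 9.61 in the mutant. The strains overlapped in *MGA2* and were apart by 0.10 in *SPT23*. The log FC of *MGA2* was -0.11 (SE 0.10, 95% interval -0.36 to 0.15, adjusted p = 0.472 from limma) and that of *SPT23* was 0.20 (SE 0.08, 95% interval -0.01 to 0.41, adjusted p = 0.126). With an array left out the log FC of *SPT23* ranged from 0.14 to 0.27.

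**Figure D3:**
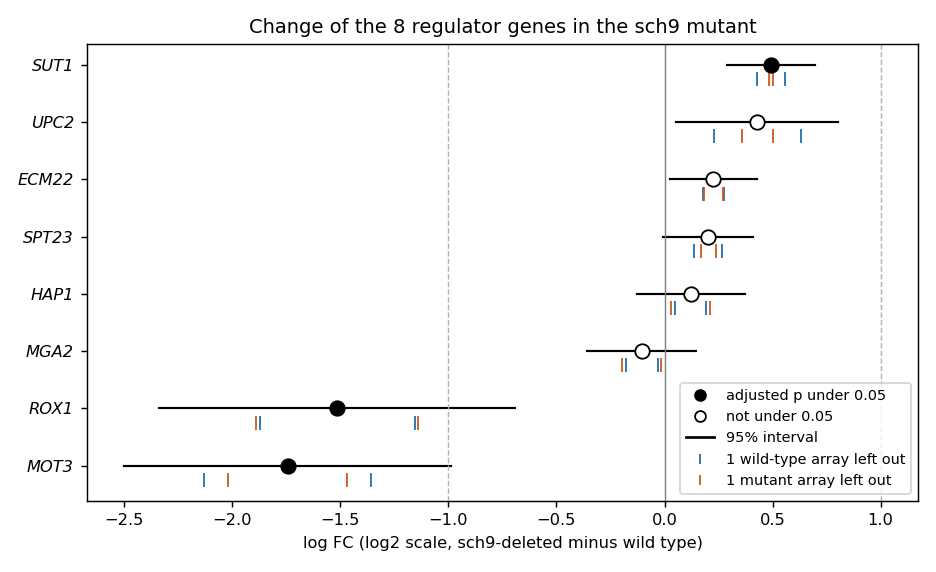
Log FC of the 8 regulator genes with the 95% interval from limma, filled circles for an adjusted p under 0.05, dashed lines at the fold criterion, and short strokes for the log FC with 1 array left out (blue, wild type, orange, mutant). *MOT3* at -1.74 and *ROX1* at -1.51 lie beyond -1, and the other 6 genes lie between -0.11 and 0.49.

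Paralogs were compared within arrays, as the log2 value of a gene minus that of its paralog, so that a change between strains shows that they changed unequally. The SE of a shift in this difference was computed from the 2 arrays of each strain, without the moderation of limma. For *SUT1* minus *SUT2* the difference was -2.12 and -1.83 in the wild type and -0.78 and -0.62 in the mutant, a shift of 1.28 (SE 0.17) with the strains apart. The shift came from both sides, since *SUT2*, the less studied relative of *SUT1*, fell. Its log2 intensities were 8.67 and 8.51 in the wild type and 7.88 and 7.73 in the mutant, with a log FC of -0.78 (SE 0.10, adjusted p = 0.00664 from limma, and -0.71 with an adjusted p of 0.0710 without replicate 2 of the sch9-deleted strain). For *MGA2* minus *SPT23* the difference was 1.58 and 1.86 in the wild type and 1.36 and 1.47 in the mutant, a shift of -0.31 (SE 0.15). That of *UPC2* minus *ECM22* was -0.67 and -1.17 in the wild type and -0.74 and -0.68 in the mutant, where the strains overlapped, and the shift of 0.20 (SE 0.25) was -0.05 without replicate 2 of the wild type. An exact two-sided permutation test gave p = 0.333 for the first and the second of these 3 pairs, the smallest value that 2 arrays against 2 allow, and p = 1 for the last, or 0.5, 0.5 and 1 after adjustment over the 3 pairs.

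Genes under the control of these regulators did not move as a single group. Ergosterol synthesis genes, which Upc2 and Ecm22 activate, were mostly lower, sterol uptake and anaerobic cell wall genes passed in neither direction, and the hypoxic genes that Rox1 represses were lower more often than higher. Counts for these lists use the same threshold in limma and are to be read beside the 12.1% and 14.6% of all features.

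Of 25 measured genes of ergosterol synthesis 22 were lower and 0 higher, and 3 did not pass. Among these 3 was *HMG1*, named after its value was seen, at -1.17 (SE 0.40, adjusted p = 0.0856 from limma). The paper lists *HMG1* among the down-regulated genes. The list had a median log FC of -1.11 (24 lower and 0 higher at an unadjusted p under 0.05). Replicate 1 exceeded replicate 2 in both strains in 23 of these 25 genes, against 1551 of all 6226 features, by a median of 0.34 within each strain, and its part in the result was not tested. The genes with the strongest fall were *CYB5*, cytochrome b5, an electron donor of sterol desaturation, at -2.09 (SE 0.32), *ERG8* at -2.06 (SE 0.24), *ERG10* at -1.62 (SE 0.28) and *ERG13* at -1.50 (SE 0.31). *HMG2*, the HMG-CoA reductase gene that Rox1 represses, had the only positive value of the list, 0.13. Thus the mRNA of the enzymes fell while that of *UPC2* and *ECM22* had positive log FC, of 0.43 and 0.23, that did not pass. The count of lower genes was 5 when replicate 2 of the mutant was left out.

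Of 10 genes of sterol uptake and the anaerobic cell wall, by contrast, 0 were lower and 0 were higher in limma, also at an unadjusted p under 0.05. *AUS1*, a sterol importer, had log2 intensities of 11.73 and 11.50 in the wild type and of 11.36 and 11.39 in the mutant, and its log FC of -0.24 (SE 0.10, adjusted p = 0.136) was the lowest of the list. The other importer gene, *PDR11*, named after its value was seen, had 12.28 and 12.34 in the wild type and 12.40 and 12.45 in the mutant, a log FC of 0.12 (SE 0.07, adjusted p = 0.283). Log FC of the whole list, with the mannoprotein genes *DAN1* to *DAN4* and *TIR1* to *TIR4*, ran from -0.24 to 0.14, with a median of 0.06. Members of these wall protein families resemble each other and may share signal on a probe. Without replicate 1 of the wild type 1 gene was lower and 2 were higher, and without replicate 2 of the wild type 3 were lower and 0 higher.

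The 10 genes that Rox1 is known to repress in air included 6 that were lower, 1 that was higher and 3 that did not pass, with a median log FC of -0.43. *ERG11*, the lanosterol demethylase gene, was lowest at -1.30 (SE 0.23). *ANB1*, the hypoxic gene of translation factor eIF5A, had 12.23 and 12.02 in the wild type and 11.49 and 11.23 in the mutant, a log FC of -0.77 (SE 0.12, adjusted p = 0.0137), but its probe may share signal with the near-identical *HYP2*. *FET4*, a low-affinity iron transporter gene, had a log FC of -0.70 (SE 0.08) and *NCP1*, which encodes the reductase of the sterol P450 enzymes, of -0.58 (SE 0.15). The higher gene was *CYC7*, the hypoxic form of cytochrome c, with 13.20 and 13.29 in the wild type and 13.82 and 13.80 in the mutant, a log FC of 0.56 (SE 0.07, adjusted p = 0.00803). *ERG11*, *NCP1* and *HMG2* are also in the ergosterol list, and *CYC7* and *NCP1* in that of Hap1. Without replicate 2 of the wild type 2 were higher, without replicate 1 of the sch9-deleted strain 3 were lower and 0 higher, and without replicate 2 of that strain 0 and 0.

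Of 10 genes that Hap1 activates with heme 2 were lower and 2 higher, while 6 did not pass, at a median of -0.05. At an unadjusted p under 0.05 in limma 4 were lower and 3 higher. Replicate 1 exceeded replicate 2 in both strains in 9 of the 10, by medians of 0.47 and 0.28, and the part of this in the result was not tested. *CYC1* had log2 intensities of 8.90 and 8.14 in the wild type and of 7.27 and 6.68 in the mutant, a log FC of -1.54 (SE 0.30, adjusted p = 0.0221). *CTT1*, the cytosolic catalase gene, moved the opposite way, with 10.81 and 10.41 in the wild type and 12.53 and 12.52 in the mutant, a log FC of 1.91 (SE 0.14, adjusted p = 0.00168). *CTT1* is also a target of the general stress factors Msn2 and Msn4. As for the cytochrome c genes, the aerobic form was lower and the hypoxic form higher, while *HAP1* itself had a log FC of 0.12. The call of *CYC1* was lost when replicate 2 of the mutant was left out (-1.24, adjusted p = 0.106), and that of *CYC7* when either mutant array was, whereas *CTT1* passed with each of the 4 arrays left out. Leaving out replicate 1 of the wild type, 4 of the list were lower and 4 higher, without replicate 2 of the wild type 5 were lower, without replicate 1 of the mutant 1 was lower and 1 higher, and without replicate 2 of the mutant 0 were lower and 1 higher.

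*OLE1*, the target of Mga2 and Spt23, named after its value was seen, had log2 intensities of 15.45 and 15.58 in the wild type and of 15.47 and 15.30 in the mutant, with a log FC of -0.13 (SE 0.10, adjusted p = 0.363). Of the 9 genes of fatty acid desaturation and supply 1 was lower and 0 were higher (1 at an unadjusted p under 0.05), with a median of -0.13. The lower gene was *ELO1*, a fatty acid elongase, with 11.52 and 10.85 in the wild type and 10.05 and 9.56 in the mutant, a log FC of -1.38 (SE 0.26, adjusted p = 0.0204). *ACC1*, the acetyl-CoA carboxylase gene, had the highest value, 0.24 (adjusted p = 0.0861). With replicate 2 of the mutant left out 0 of this list were lower, and without either wild-type array 2 were.

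Among genes of the machinery that releases Mga2 and Spt23 from the membrane, 2 of 5 measured were higher and 0 were lower (also 0 at an unadjusted p under 0.05), with a median of 0.18. *UBX2* (*SEL1* on the array), a membrane adaptor of the segregase Cdc48, rose by 0.42 (SE 0.09, adjusted p = 0.0252) and *RSP5*, the ubiquitin ligase, by 0.32 (SE 0.08, adjusted p = 0.0451), while *UFD1*, a cofactor of Cdc48, had a log FC of -0.13. Without either mutant array 0 were higher. Without replicate 1 of the wild type 1 was higher and 1 lower.

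**Figure D4:**
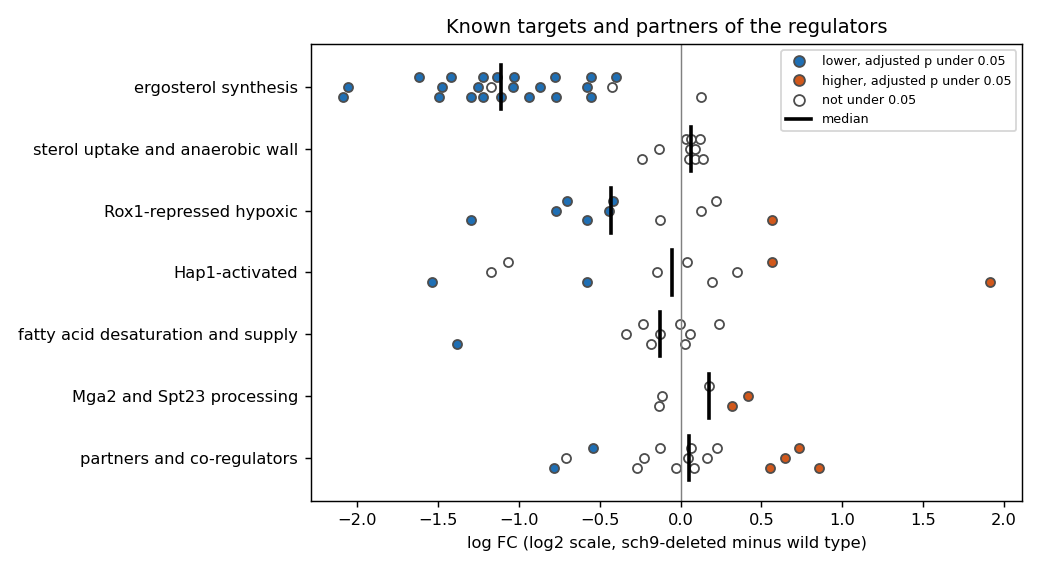
Log FC of known targets and partners of the regulators, 1 point a gene, blue and orange for genes lower and higher at an adjusted p under 0.05, open points for the others and a black bar at the median of each list. Ergosterol synthesis lies furthest to the left, with a median of -1.11, while the 10 genes of sterol uptake and the anaerobic wall lie between -0.24 and 0.14.

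Of 16 partners and co-regulators 2 were lower and 4 higher, while 10 did not pass, at a median of 0.05. The genes of the corepressor that Rox1 and Mot3 recruit, named after their values were seen, had a log FC of 0.17 (*TUP1*, adjusted p = 0.170) and -0.13 (*CYC8*, adjusted p = 0.381). Chaperones that bind Hap1 went both ways, *HSP82* with 10.09 and 10.17 in the wild type and 10.93 and 11.05 in the mutant, a log FC of 0.86 (SE 0.08, adjusted p = 0.00359), *SSA1* with a log FC of 0.64 (SE 0.12) and *YDJ1* with -0.54 (SE 0.10). Of the 4 subunit genes of the heme-responsive CCAAT-binding complex, *HAP2* rose by 0.73 (SE 0.07, adjusted p = 0.00376) and *HAP5* by 0.55 (SE 0.07, adjusted p = 0.00823), while *HAP3* and *HAP4*, named after their values were seen, had a log FC of -0.27 (SE 0.09, adjusted p = 0.0887) and 0.07 (SE 0.20, adjusted p = 0.840). Without replicate 1 of the wild type these were -0.37 and 0.36. Without replicate 2 of the wild type they were -0.17 and -0.23, so that the sign of *HAP4* depended on the wild-type array kept. *SSA1*, *YDJ1*, *HAP2* and *HAP5* lost their call with replicate 2 of the mutant left out, and *YDJ1* and *HAP5* also without replicate 1. The numbers lower and higher were 0 and 1 without replicate 2 of that strain, 1 lower without its replicate 1, and 4 lower without replicate 1 of the wild type.

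The place of the regulator genes in the genome was examined through their nearest neighbours with a symbol on the array. Genes passed over in between may be among the 2166 probes without a symbol. Of 16 flanking genes, 9 of them directly adjacent in the annotation, 2 were lower, 4 higher and 10 without a call, and their median log FC was 0.03. These counts are to be read beside the 12.1% and 14.6% of all features. *FCY1*, the cytosine deaminase gene and the nearest found by symbol before *ROX1*, 3 annotated genes away, was lower at -0.74 (SE 0.09, adjusted p = 0.00645). Directly beside *SPT23*, *MAK11*, a gene of large ribosomal subunit formation, was lower at -0.37 (SE 0.08, adjusted p = 0.0259). *HAP1* lay between *SYM1* at 0.52 and *GSY2*, a glycogen synthase gene, at 0.92, each 4 annotated genes away, *MGA2* directly next to the allantoin pathway gene *DAL3* at 0.63, and *MOT3* 2 annotated genes from *ABF2*, a mitochondrial DNA packaging gene, at 0.41. On the other side of *MOT3*, *AVO2*, a TORC2 subunit gene named after its value was seen, had a log FC of -0.71 (SE 0.24, adjusted p = 0.0853), the lowest of the 10 genes without a call, which ran up to 0.16. It was -0.34 (adjusted p = 0.0400) without wild-type replicate 1 and -1.07 (adjusted p = 0.00105) with replicate 2 of the wild type left out. Of the 6 calls that of *GSY2* held without each array in turn, that of *FCY1* was lost with replicate 2 of the mutant left out, and the other 4 without either array of that strain.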

How the data were processed

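For each sample the authors made Cy3-labelled cRNA, hybridised it to a one-colour Agilent array, read the spots with GenePix software and applied quantile normalisation from limma, with R 2.14.2 in the submitters' processing notes. The deposited values are log2 intensities, 1 per probe. The log2 scale was judged from the values, and how background was treated is not stated in the paper or the labels. There were 6227 probes, of which 4061 carry 1 symbol, 0 several and 2166 are unnamed here. Of 4060 symbols 4056 matched the RefSeq annotation of assembly R64, used for names and neighbours only. Probes of a gene were averaged.

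The strains were compared by lmFit and eBayes of limma 3.58.1 (R 4.3.3), with Benjamini-Hochberg adjustment over 6226 features. The code was also run on simulated data with independent noise on each array. Those data lack the replicate differences shared by the strains, and so do not bear on how far the calls here hold. Standard errors and 95% intervals of log FC are moderated, while the SE of the paralog shifts are not. The regulator genes and lists were chosen with earlier results of these data known. Named are all 8 regulators, *SCH9*, the measured alpha-specific genes, and flanking genes that passed. Of each list, up to 4 passing genes in each direction and the value most against the list's direction are named. The 3 genes most like each regulator past the fold criterion are named too. Where lists pass more genes than are named, those further down by size are left out. Motif and protein comparisons were not made here. Alternatives were 3 other scalings, a filter on the 0.25 of features of lowest intensity, trend and robust eBayes, the brightest probe, the fold criterion, the replicate number as a block and each array left out. Pairs used exact permutation tests in scipy 1.17.1, and plots matplotlib 3.10.9.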

Additional observations from a re-analysis of the deposited data

How the results depend on the processing

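None of the 95 recomputed log FC of the 8 regulator genes changed sign. With an array left out the log FC ranged from -2.13 to -1.36 for *MOT3* and from -1.89 to -1.14 for *ROX1*, and under the other 8 settings from -1.75 to -1.73 and from -1.52 to -1.50. The number of regulator genes lower was 0 to 2 and that higher 0 to 3 with an array left out, while 0 were higher with the dimmest features left out, since *SUT1* is among these, and 0 with the fold criterion. Over all features 58 to 1268 were lower and 179 to 1313 higher with an array left out, and 102 and 136 with the fold criterion.

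With an array left out the numbers of genes lower ran from 5 to 24 in ergosterol synthesis, 0 to 3 in sterol uptake and the anaerobic wall, 0 to 6 in the Rox1 list, 0 to 5 in the Hap1 list, 0 to 2 in fatty acid supply, 0 to 1 in Mga2 and Spt23 processing and 0 to 4 among partners. Those higher ran from 0 to 2, 0 to 2, 1 to 4, 0 to 1, 0 to 2 and 1 to 5 in the lists after the first. *DAN2* and *TIR2* had negative values past the test, -0.28 and -0.28, without replicate 2 of the wild type, and passed with positive values, 0.38 and 0.40, without replicate 1. With the fold criterion the lower counts were 14 (ergosterol), 1 (Rox1), 1 (Hap1) and 0 (partners), and the higher ones 0 (Rox1), 1 (Hap1), 0 (processing) and 0 (partners). Median centring and an intensity trend each left 1 processing gene higher. Counts with an array left out rest on 3 arrays, the lone array being assumed to vary like the others, and the causes of the other changes were not tested.

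The replicate numbers are shared by the strains, but nothing in the labels says that they pair cultures. Differences between replicates 1 and 2 correlated between the strains across features (r = 0.53, with genes that are not independent replicates). With the replicate number as a block 3 regulator genes were higher, *UPC2* (adjusted p = 0.0234) and *ECM22* (adjusted p = 0.0483) beside *SUT1*, 2 were lower, 1311 features were lower, and 4 Hap1 targets and 4 partners were lower.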
